A study of Mus musculus with 4 samples.

Results

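The genes described here are 9 genes of thymidylate synthesis, dUTP disposal and deoxynucleotide supply: Tyms, Shmt1, Dut, Dctd, Dtymk, Dck, Rrm1, Rrm2 and Rrm2b. They were chosen by symbol, and each matched 1 row of the 36445 gene rows in the deposited table. MC38 is a mouse colon cancer cell line. Polyadenylated RNA was sequenced after 24 h with 5-fluorouracil (5-FU) at 1 mM in 2 libraries, and after PBS in 2 libraries. Both groups are the same line in the same medium, with serum, penicillin, streptomycin and glutamine, and in the labels differ by the 5-FU. Nothing in the labels tells whether the libraries of a group were separate cultures, so p-values measure the spread between these libraries, which may be technical.

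The 9 genes encode the enzymes that make deoxynucleotides and feed the thymidine branch. Ribonucleotide reductase, built from the large subunit RRM1 and a small subunit, RRM2 or RRM2B, reduces ribonucleotides to deoxynucleotides. dUMP comes from dUTP through the dUTPase DUT and from dCMP through the deaminase DCTD. Thymidylate synthase, the product of Tyms, methylates dUMP to dTMP with a folate that serine hydroxymethyltransferase (SHMT1 or SHMT2) helps to charge, and the kinase DTYMK passes dTMP on towards dTTP. The 5-FU metabolite FdUMP binds thymidylate synthase and blocks it, which is why these transcripts are of interest in cells given 5-FU.

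The levels are FPKM, which are fragments scaled to the length of the gene's exons and to the library. Estimated depth was 20.8 and 20.6 M reads in the 5-FU libraries, against 41.3 and 41.6 M reads in the PBS libraries. Depth thus followed the groups, and any effect of it cannot be told apart from that of 5-FU. The 5-FU pair was close, with a median absolute difference of 0.07 log2 over tested genes, and the PBS pair was further apart at 0.27 log2. All 8 epithelial markers, Epcam, Cdh1 and the keratin genes Krt8, Krt18, Krt19 and Krt20 among them, lay below 1 FPKM in every library, although the label is a colon cancer line. Their summed level was 1.73 and 1.67 FPKM with 5-FU, against 0.769 and 1.53 FPKM with PBS. Of 8 tested mesenchymal markers 3 fell (Snai2, Fn1 and Twist1) and 0 rose, beside 31.2% lower and 22.1% higher of all tested genes, and the list of 9 summed to 1399 and 1354 FPKM with 5-FU, against 1460 and 1609 FPKM with PBS. Of the 9 leukocyte markers 7 stayed below 1 FPKM throughout, with Cd3e listed at 0, and of the 6 endothelial and erythroid markers 5 did, with Hbb-bt listed at 0. The leukocyte list summed to 21.04 and 19.4 FPKM with 5-FU, against 8.05 and 22.6 FPKM with PBS, nearly all of it from Cd68 and Lyz2. The endothelial and erythroid list summed to 3.69 and 3.18 FPKM, against 2.74 and 1.96 FPKM.

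After 5-FU, transcripts of Tyms and Dut were higher and no gene of the 9 passed as lower. Tyms, the direct target of the drug's metabolite, was 2.13-fold higher, and Dut was 1.53-fold higher. The other 7 genes did not pass the threshold, which was a Benjamini-Hochberg adjusted p under 0.05 in limma over all 11644 genes tested. Of all tested genes 22.1% passed as higher and 31.2% as lower, and 53.3% in either direction. The count of 2 higher of 9 is close to the background share, and 0 lower of 9 is below it. All 9 genes passed the filter on low values. The median log2 difference was -0.03 over the 9 genes, against -0.10 over all tested genes. With median-ratio scaling and with quantile normalization the median over all tested genes moved to 0.01 and 0.02.

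Sequences around RefSeq start sites are shown for Tyms and Dut, the genes that rose, and for Rrm2, the gene of the 9 with the highest level. Each runs from 250 bases before to 50 bases after a RefSeq start on GRCm38.p6, 5′ to 3′ on the strand of the gene. The 3 motifs searched, on both strands, are in capitals: the GC box, spelled GGGCGG; the CCAAT box, spelled as its name; and letters of the E2F type. The E2F-type letters were TTCCCGC and its variant TTCGCGC, as well as the form TTGCCGC and its variant TTGGCGC. Of the 9 genes 8 were matched in the RefSeq promoter table used here, all but Rrm2b.
Tyms, chr5:30073576-30073875, minus strand: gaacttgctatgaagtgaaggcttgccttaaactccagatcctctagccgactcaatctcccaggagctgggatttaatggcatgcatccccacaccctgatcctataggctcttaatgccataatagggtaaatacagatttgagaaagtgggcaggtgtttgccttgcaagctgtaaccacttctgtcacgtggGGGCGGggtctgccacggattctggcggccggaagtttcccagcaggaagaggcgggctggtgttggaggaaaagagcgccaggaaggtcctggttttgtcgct
Dut, chr2:125247265-125247564, plus strand: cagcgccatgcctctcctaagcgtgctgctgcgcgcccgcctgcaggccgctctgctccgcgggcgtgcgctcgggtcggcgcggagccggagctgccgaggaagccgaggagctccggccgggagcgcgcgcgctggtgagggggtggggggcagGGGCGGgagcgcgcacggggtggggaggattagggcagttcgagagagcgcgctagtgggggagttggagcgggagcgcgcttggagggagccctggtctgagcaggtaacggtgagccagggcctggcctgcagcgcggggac
Rrm2, chr12:24708004-24708303, plus strand: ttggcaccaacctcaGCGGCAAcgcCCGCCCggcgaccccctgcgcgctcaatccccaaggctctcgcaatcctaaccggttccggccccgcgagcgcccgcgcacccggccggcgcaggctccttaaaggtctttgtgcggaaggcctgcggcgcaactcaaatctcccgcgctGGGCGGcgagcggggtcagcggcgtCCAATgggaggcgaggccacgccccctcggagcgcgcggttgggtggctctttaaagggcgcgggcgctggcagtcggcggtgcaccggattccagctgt

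Tyms and Dut each held 1 GC box, beginning 54 and 94 bases before the RefSeq start, and none of the CCAAT or E2F-type letters. The Dut window, from 125247265, lies inside the span of the gene in GENCODE M21, which begins at 125247190. Bases before that span were therefore not searched for Dut. Rrm2 held 2 GC boxes, 1 CCAAT 50 bases before the start and 1 E2F-type match 235 bases before it. The matches in the windows shown do not overlap one another. Of the members not shown, Shmt1, Dtymk and Rrm1 also held E2F-type letters. CCAAT was also held by Shmt1, Dtymk, Rrm1 and some of the Dctd windows. GC boxes were also held by Shmt1 (4 matches), Dck (6 matches) and some of the Dctd windows (1 match each). Of 32851 RefSeq windows of the same length 35.7% held a GC box, 37.4% held CCAAT and 9.57% held E2F-type letters. C and G made up 75.0% of the Dut window and 71.3% of the Rrm2 window, and less of the Tyms window. These matches describe the letters and not sites of binding.

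**Figure D1:**
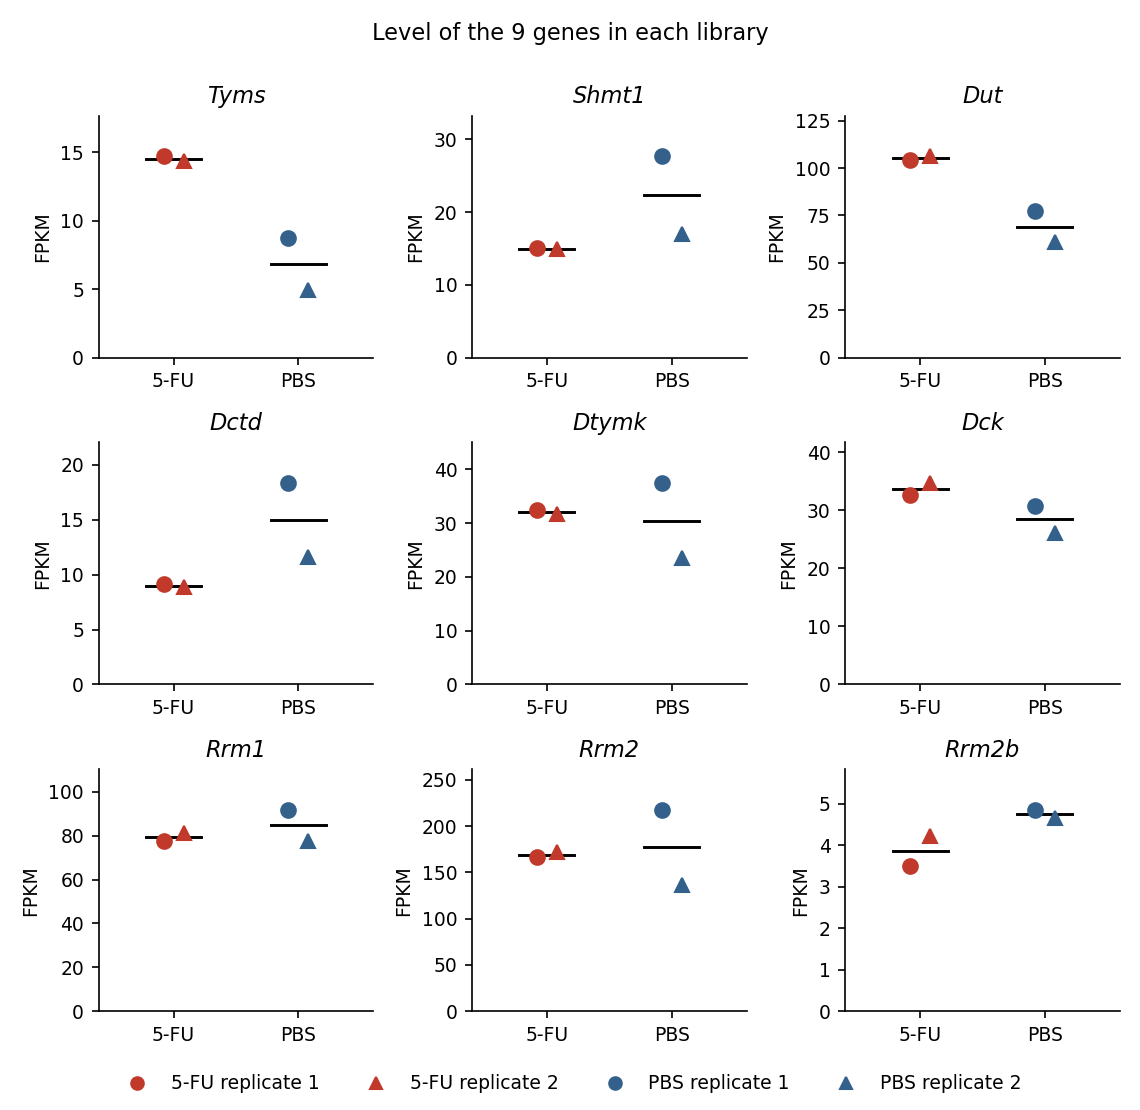
Each panel plots the FPKM of 1 gene in the 2 5-FU libraries and the 2 PBS libraries, with a bar at each group's mean. Tyms, Dut and Dck lie higher in both 5-FU libraries, Shmt1, Dctd and Rrm2b lie lower in both, and in all 9 panels PBS replicate 1 lies above PBS replicate 2.

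Thymidylate synthesis is carried by Tyms with the folate enzyme Shmt1. Tyms rose, and Shmt1 did not pass the test. Tyms (chromosome 5, 30058202 to 30073617, minus strand, protein-coding) measured 14.7 and 14.3 FPKM with 5-FU, against 8.73 and 4.94 FPKM with PBS. Both 5-FU libraries were above both PBS libraries, and the 5-FU values nearly coincided while the PBS values were far apart. Means were 14.5 ± 0.280 FPKM with 5-FU and 6.83 ± 2.68 FPKM with PBS (SD, n = 2 each here and below). On the log2(FPKM + 1) scale, used for all log2 differences here and understating the change of low genes, Tyms differed by 1.03 ± 0.26 (SE, 95% interval 0.34 to 1.72, limma adjusted p = 0.029). Leaving out PBS replicate 2 gave 0.68, and leaving out PBS replicate 1 gave 1.39. The adjusted p was 0.101 without 5-FU replicate 1, 0.0928 without 5-FU replicate 2 and 0.0937 with no filter on low values. Stretches of up to 361 bases in the Tyms transcript match 31 other annotated genes at 95% identity or more, so part of its reads could be assigned elsewhere.

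Shmt1 encodes the cytosolic serine hydroxymethyltransferase that can supply thymidylate synthesis with its folate. Shmt1 (chromosome 11, 60788104 to 60811718, minus strand) measured 15.0 and 14.9 FPKM with 5-FU, against 27.7 and 17.0 FPKM with PBS. Both 5-FU libraries were below both PBS libraries, PBS replicate 2 by little. The log2 difference of -0.51 ± 0.25 (95% interval -1.16 to 0.14) did not pass (limma adjusted p = 0.144). The call was lower without PBS replicate 2 (adjusted p = 4.55e-06), and the difference without PBS replicate 1 was -0.17. An exon of Shmt1 overlaps Smcr8 on the opposite strand, and with no strand setting given in the sources used here their reads cannot be told apart. Smcr8 itself measured 6.12 and 6.36 FPKM with 5-FU, against 8.80 and 9.18 FPKM with PBS.

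Of the genes that supply dUMP, the dUTPase gene rose and the deaminase gene did not pass the test. Dut, whose product removes dUTP before it can be built into DNA, lies on chromosome 2 from 125247190 to 125258608, plus strand. It measured 104.0 and 106.4 FPKM with 5-FU, against 77.1 and 60.8 FPKM with PBS. The groups did not overlap, and the gap between them exceeded the gap between the PBS libraries. Dut differed by 0.61 ± 0.15 log2 (95% interval 0.22 to 1.00, limma adjusted p = 0.0256). The adjusted p was 0.162 without 5-FU replicate 1, 0.185 without 5-FU replicate 2, 0.0703 with no filter on low values and 0.0719 with quantile normalization, where the difference was 0.41. The rise of Tyms was larger than that of Dut by 0.42 ± 0.16 log2, which did not pass (95% interval -0.0055 to 0.84, limma adjusted p = 0.0849).

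Dctd, the dCMP deaminase gene (chromosome 8, 48099092 to 48153233, plus strand), measured 9.11 and 8.88 FPKM with 5-FU, against 18.4 and 11.6 FPKM with PBS. Its groups did not overlap either, and both 5-FU values were the lower ones. It was 1.67-fold lower by the means, with a log2 difference of -0.64 ± 0.23 (95% interval -1.26 to -0.03). The interval excludes 0, but the gene did not pass after adjustment over all genes (limma adjusted p = 0.0743). It passed as lower without PBS replicate 1 (adjusted p = 0.0032) and without PBS replicate 2 (adjusted p = 3.09e-06). Without a PBS library the error comes from the closer 5-FU pair.

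Both deoxynucleotide kinase genes stayed short of the threshold. Dtymk, whose kinase phosphorylates dTMP, lies on chromosome 1 from 93792576 to 93801934, minus strand. It measured 32.4 and 31.6 FPKM with 5-FU, against 37.5 and 23.5 FPKM with PBS, so the 5-FU values fell between the PBS values. The log2 difference was 0.10 ± 0.24 (95% interval -0.52 to 0.73, limma adjusted p = 0.732). It was 0.43 without PBS replicate 1 (adjusted p = 0.000274) and -0.22 without PBS replicate 2 (adjusted p = 0.0151), so the choice of PBS library set its sign.

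Dck, the deoxycytidine kinase gene of the salvage pathway (chromosome 5, 88764996 to 88783281, plus strand), measured 32.6 and 34.7 FPKM with 5-FU, against 30.8 and 26.0 FPKM with PBS. Its 5-FU libraries lay above its PBS libraries by a small margin. The log2 difference of 0.24 ± 0.13 did not pass (95% interval -0.10 to 0.58, limma adjusted p = 0.18). It was called higher in 1 of 13 alternative settings, the one without PBS replicate 1 (adjusted p = 0.00129).

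The 3 subunit genes of ribonucleotide reductase did not pass in either direction. Rrm2, the S-phase small subunit gene (chromosome 12, 24708241 to 24714146, plus strand), had the highest level of the 9 genes. It measured 166.3 and 171.9 FPKM with 5-FU, against 217.8 and 136.2 FPKM with PBS. The PBS libraries stood on either side of the 5-FU pair, and the log2 difference was -0.03 ± 0.24 (95% interval -0.67 to 0.61, limma adjusted p = 0.932). Stretches of up to 419 bases match 2 other annotated genes, Gm48455 and Gm48445, at 95% identity or more. Its sign followed the PBS library: 0.31 without PBS replicate 1 (adjusted p = 0.00155) and -0.36 without PBS replicate 2 (adjusted p = 0.000637).

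Rrm1, the large subunit gene (chromosome 7, 102441695 to 102469771, plus strand), measured 77.5 and 81.4 FPKM with 5-FU, against 91.8 and 77.4 FPKM with PBS. The groups overlapped, and the log2 difference was -0.09 ± 0.13 (95% interval -0.42 to 0.25, limma adjusted p = 0.599). This is the narrowest interval of the 9 genes and leaves room for a change of up to 0.42 log2. Without PBS replicate 2 it passed as lower, by -0.21 log2 (adjusted p = 0.0194).

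Rrm2b encodes the small subunit that p53 can induce and that serves repair and mitochondrial DNA outside S phase. Rrm2b (chromosome 15, 37923952 to 37961318, minus strand) measured 3.51 and 4.22 FPKM with 5-FU, against 4.86 and 4.65 FPKM with PBS. Both 5-FU values were below both PBS values, and the 5-FU pair differed more than the PBS pair, unlike in the other 8 genes. The log2 difference of -0.25 ± 0.14 did not pass (95% interval -0.63 to 0.13, limma adjusted p = 0.208), nor did it in any of the 12 alternative settings that tested it. With quantile normalization its sign turned, to 0.12. An exon of Rrm2b overlaps the antisense gene Gm49085, and 1051 bases of its transcript match Gm8616 at 95% identity or more, so its reads may be shared.

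**Figure D2:**
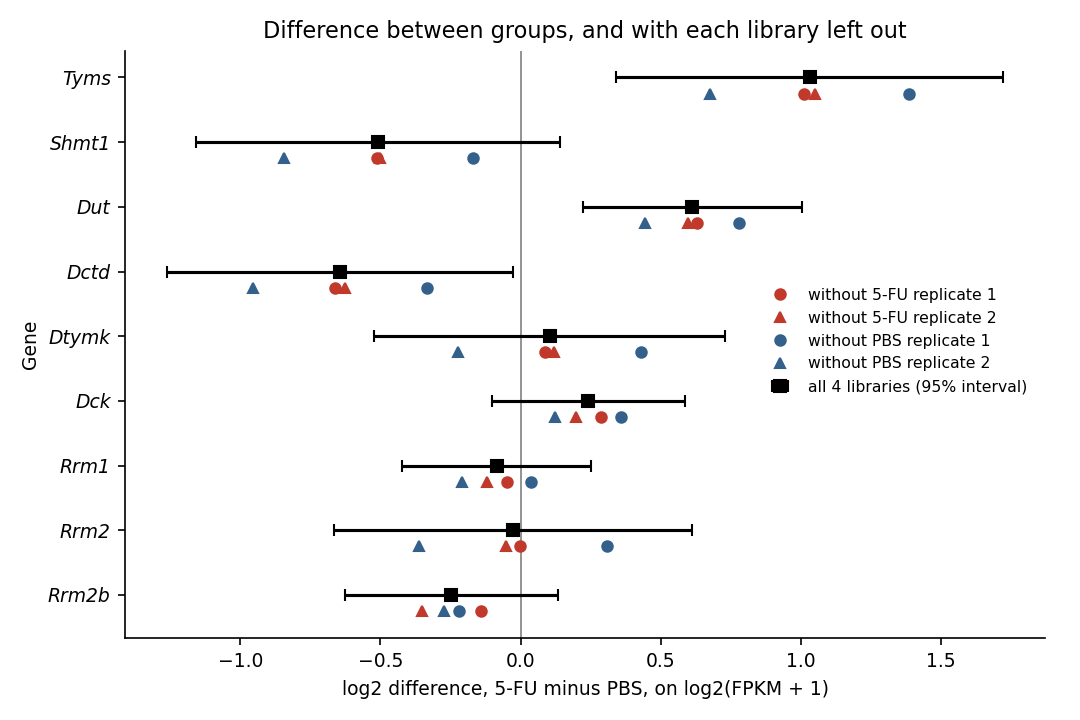
Squares give the log2 difference of 5-FU minus PBS for each gene on log2(FPKM + 1) with its 95% limma interval, and the coloured marks give the difference with 1 library left out. The intervals of Tyms, Dut and Dctd exclude 0, and the marks without PBS replicate 1 and without PBS replicate 2 lie on opposite sides of 0 for Dtymk, Rrm1 and Rrm2.

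By non-overlap, 3 of the 9 genes lay above PBS in both 5-FU libraries (Tyms, Dut, Dck) and 3 lay below (Shmt1, Dctd, Rrm2b). The same held for 35.9% and 45.1% of all tested genes, and in total 6 of the 9 genes were apart, beside 81.0% of all tested genes. The remaining genes, Dtymk, Rrm1 and Rrm2, had a PBS library on each side of at least 1 5-FU library.

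The gap between the PBS libraries ran in 1 direction for these genes. PBS replicate 1 exceeded PBS replicate 2 in all 9, and the median gap was 0.62 log2. Over all tested genes 57.3% were higher in PBS replicate 1, with a median gap of 0.07 log2. In 4 of the 9 genes this gap was larger than the difference between the groups. The S-phase genes did the same. Of 42 such genes, a list of replication and origin genes without the 9, 38 had their higher PBS value in replicate 1, with a median gap of 0.50 log2, and the 42 summed to 1862 and 1881 FPKM with 5-FU, against 1736 and 1236 FPKM with PBS. Whether the share of cells in S phase differed between the PBS libraries was not tested. In bulk RNA, fewer cells in a state and less RNA per cell cannot be told apart.

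**Figure D3:**
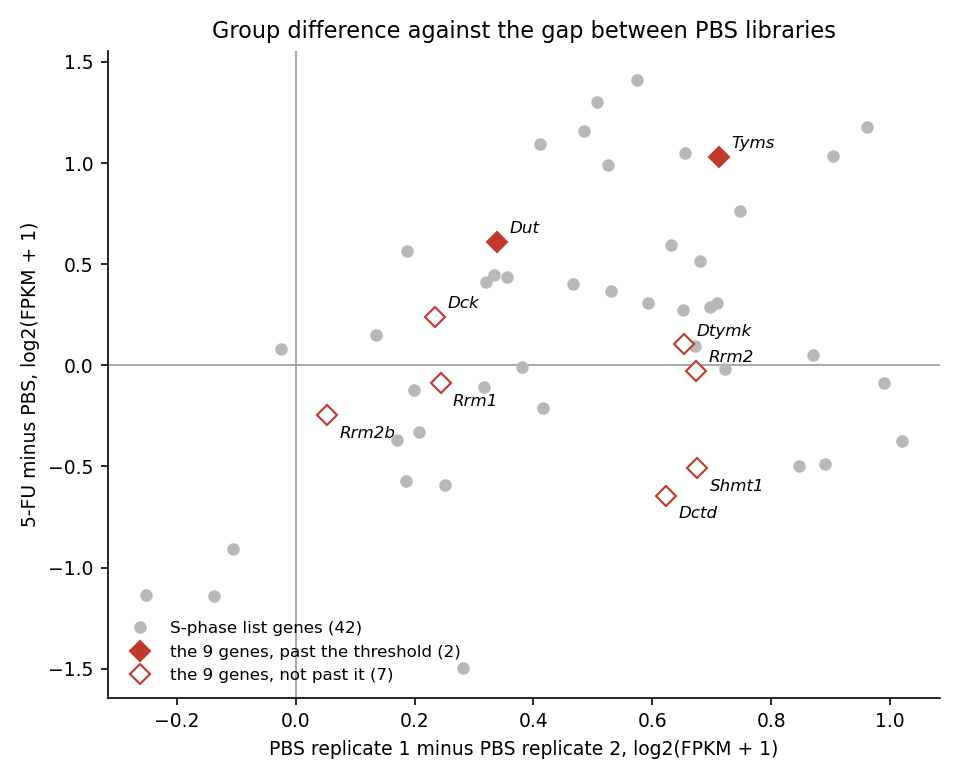
The horizontal axis is PBS replicate 1 minus PBS replicate 2 and the vertical axis 5-FU minus PBS, both in log2(FPKM + 1), for the 9 genes (diamonds, filled where past the threshold) and 42 S-phase genes (grey). All 9 diamonds lie right of 0, as do 38 of the 42 grey points, while the vertical spread runs from -0.64 for Dctd to 1.03 for Tyms.

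Ratios of genes within a library do not depend on its scaling. Tyms to Dtymk, the enzymes that follow each other on the way to dTTP, stood at 0.455 and 0.454 with 5-FU, against 0.233 and 0.210 with PBS. The 5-FU ratio was thus 2.05-fold higher, and the PBS libraries, which differed in both genes, were close in their ratio. Shmt1 to Shmt2, the cytosolic over the mitochondrial enzyme, was 0.0943 and 0.0999 with 5-FU, against 0.148 and 0.126 with PBS. Tyms to Shmt1 and Dut to Dctd were added after the values were seen. Tyms to Shmt1 was 0.979 and 0.961 with 5-FU, against 0.315 and 0.291 with PBS, which put the transcripts of both enzymes at about equal FPKM in the 5-FU libraries and Tyms well below Shmt1 in the PBS libraries. Dut to Dctd was 11.4 and 12.0 with 5-FU, against 4.20 and 5.25 with PBS. In these 4 ratios the groups did not overlap. For Tyms to Shmt1 and Dut to Dctd this was fixed beforehand. Tyms and Dut already lay above PBS in both 5-FU libraries, and Shmt1 and Dctd already lay below. An exact permutation test over 2 against 2 libraries cannot give a two-sided p below 0.33, so none is given.

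Within ribonucleotide reductase the ratios overlapped between groups. Rrm2b to Rrm2 was 0.0211 and 0.0245 with 5-FU, against 0.0223 and 0.0342 with PBS, so the S-phase small subunit transcript far exceeded the p53-inducible one in every library. The log2 difference of Rrm2b minus that of Rrm2 was -0.22 ± 0.23 (95% interval -0.84 to 0.40, limma adjusted p = 0.462), with -0.53 without PBS replicate 1, where it passed (adjusted p = 0.000206), and 0.09 without PBS replicate 2. Rrm1 to the sum of Rrm2 and Rrm2b was 0.456 and 0.462 with 5-FU, against 0.412 and 0.549 with PBS. Scaled to the lengths of the principal transcripts, it was 0.250 and 0.254 with 5-FU, against 0.226 and 0.302 with PBS. The size of this ratio thus depends on the lengths used, while the groups overlapped either way.

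**Figure D4:**
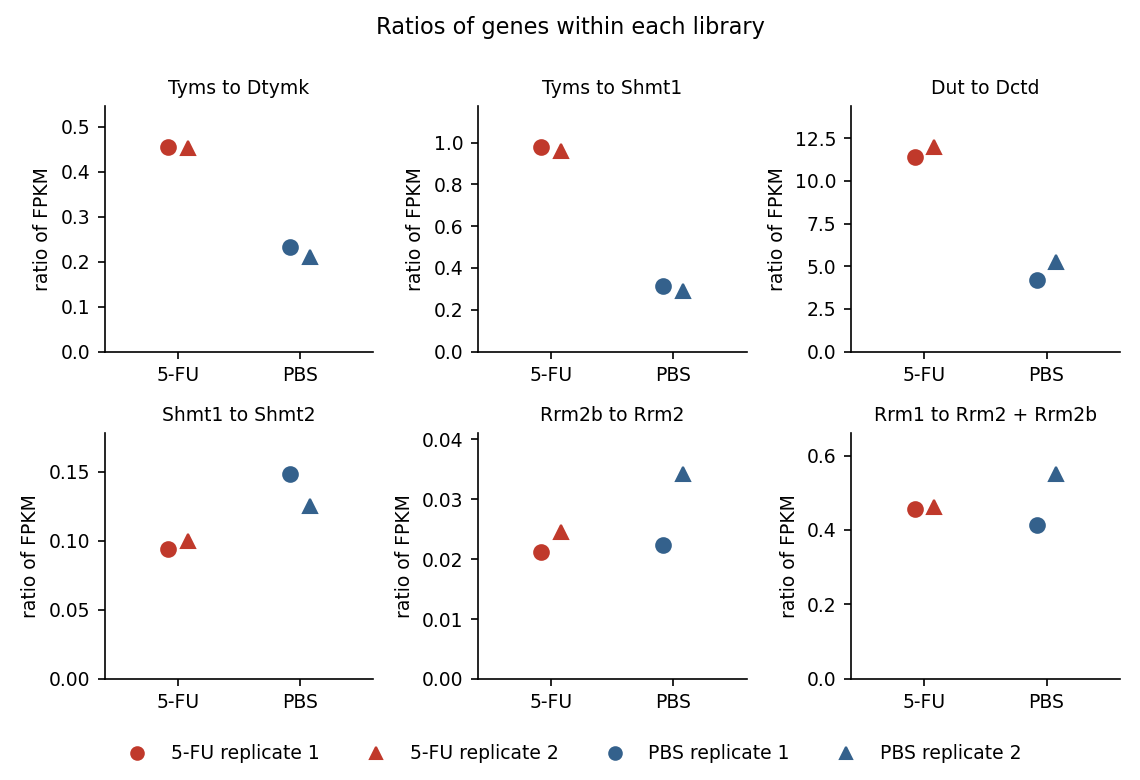
Each panel plots the ratio of the FPKM of the named genes within each of the 4 libraries, with 5-FU left of PBS and each axis starting at 0. The groups are apart for Tyms to Dtymk, Tyms to Shmt1, Dut to Dctd and Shmt1 to Shmt2, and overlap for Rrm2b to Rrm2 and for Rrm1 to Rrm2 + Rrm2b. For Tyms to Shmt1 and Dut to Dctd the separation follows from the genes' own values, seen before these ratios were chosen.

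The order of mean levels with 5-FU was Rrm2 (169.1 FPKM), Dut (105.2), Rrm1 (79.4), Dck (33.7), Dtymk (32.0), Shmt1 (15.0), Tyms (14.5), Dctd (8.99) and Rrm2b (3.87). With PBS it was Rrm2 (177.0 FPKM), Rrm1 (84.6), Dut (69.0), Dtymk (30.5), Dck (28.4), Shmt1 (22.3), Dctd (15.0), Tyms (6.83) and Rrm2b (4.76). Tyms stood above Dctd with 5-FU and below it with PBS, and Dut stood above Rrm1 with 5-FU and below it with PBS. With PBS the libraries of the neighbours Dtymk and Dck overlapped, as did those of Dck and Shmt1 and those of Shmt1 and Dctd, and Rrm1 and Dut nearly met, at 77.4 FPKM for the lower Rrm1 library and 77.1 FPKM for the higher Dut library. With 5-FU no neighbours overlapped, although Dck and Dtymk, and Shmt1 and Tyms, were close. These orders rest on the exon lengths behind the FPKM. The lengths at which reads come out whole in all 4 libraries were 6089 bases for Tyms, 4016 for Rrm2 and 3997 for Rrm1, against 3163, 2193 and 3997 bases in the principal transcript of GENCODE M21. The merged M21 exons of these genes hold 6089, 2771 and 11012 bases. The length taken for Rrm2 thus exceeds its M21 exons, as does that for Dctd (3442 against 3409 bases). Scaled levels of these 2 genes are therefore uncertain. Scaled to the principal transcript, mean levels with 5-FU and with PBS were 28.0 and 13.2 for Tyms, 20.4 and 30.4 for Shmt1, 309.7 and 324.2 for Rrm2 and 83.9 and 79.9 for Dtymk, which placed Tyms above Shmt1 and Dtymk above Rrm1 in the 5-FU group. On that scale Dut stood above Rrm1 in both groups, so their exchange of order was not kept. With PBS these means were 85.2 for Dut and 84.6 for Rrm1, with overlapping libraries. The Tyms values rest on 1868 and 1800 reads with 5-FU, against 2197 and 1251 with PBS, and the smallest counts of the 9 genes were those of Rrm2b, with 471 and 560 reads, against 1294 and 1247.

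Of 36 tested genes in 5 lists of the nucleotide pathways around the 9 genes, 11 rose (30.6%) and 6 fell (16.7%), beside 22.1% and 31.2% of all tested genes. The mitochondrial Shmt2, the other serine hydroxymethyltransferase gene, measured 159.6 and 149.3 FPKM with 5-FU, against 187.0 and 135.3 FPKM with PBS, and did not pass (limma adjusted p = 0.859).

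Of 8 tested salvage genes 1 rose and 2 fell, with a median of -0.24 log2 (1 listed gene, Pnp, has no row under that symbol). The nucleoside transporter gene Slc29a2 rose 1.85-fold. Cda, which deaminates cytidine and deoxycytidine, fell to 13.4 ± 0.0272 FPKM with 5-FU, against 38.9 ± 2.96 FPKM with PBS (limma adjusted p = 0.0028), and the mitochondrial deoxyguanosine kinase gene Dguok fell by 1.12 log2. Thymidine kinase Tk1, which salvages thymidine around a block of Tyms, averaged 17.3 FPKM with 5-FU and 20.2 FPKM with PBS and did not pass.

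The nucleotide kinases had the highest median of the pathway lists, 0.61 log2, with 4 of 8 tested genes higher and 1 lower. The nucleoside diphosphate kinase genes Nme2 and Nme1 rose 2.896-fold and 2.57-fold, with Nme2 at 75.0 and 77.2 FPKM with 5-FU, against 26.7 and 25.9 FPKM with PBS. Reads of these similar paralogs may be split between them. Nme6 rose 1.601-fold, and Nme4, the mitochondrial family member, fell by 0.70 log2, a call that was lost in 5 of 12 alternative settings.

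Genes that clear non-standard or excess deoxynucleotides moved in both directions, 3 of 8 higher and 2 lower. Itpa, which hydrolyses inosine triphosphates, rose 2.29-fold, and Dctpp1, which hydrolyses dCTP and its modified forms, rose 1.85-fold to 114.2 ± 7.08 FPKM with 5-FU, against 61.8 ± 6.32 FPKM with PBS. The deoxynucleotidase genes Nt5m and Nt5c fell by 0.89 and 0.48 log2, and the Nt5c call was lost in 6 of 13 alternative settings, median-ratio scaling and quantile normalization among them. The median of this list was 0.25 log2. The reductants of ribonucleotide reductase held 2 higher of 4 and 0 lower, with a median of 0.36 log2. Thioredoxin, Txn1, rose 1.57-fold (534.8 ± 4.86 FPKM with 5-FU and 340.8 ± 2.48 FPKM with PBS), and its reductase gene Txnrd1 rose 1.76-fold.

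Replication and division genes gave no single direction. Of the 42 S-phase genes 9 rose (21.4%) and 6 fell (14.3%), beside 22.1% and 31.2% of all tested genes, with a median of 0.21 log2. The replication protein A gene Rpa2, the flap endonuclease gene Fen1 and the exonuclease gene Exo1 rose by 1.41, 1.30 and 1.18 log2, and the clamp loader gene Rfc2, Gins2 and the helicase gene Blm fell by 1.498, 1.14 and 1.14 log2. Of 26 G2/M genes 5 rose (19.2%) and 12 fell (46.2%), with a median of -0.29 log2. Aurka, Cdk1 and Plk1 rose by 0.81, 0.75 and 0.64 log2, and the cyclin gene Ccnb2, Kif11 and Bub1 fell by 2.22, 1.05 and 0.99 log2. The G2/M genes summed to 1257 and 1248 FPKM with 5-FU, against 1319 and 1282 FPKM with PBS.

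Of 17 tested p53 pathway genes, the setting in which Rrm2b is usually placed, 3 rose (17.6%) and 5 fell (29.4%). These shares are near the 22.1% and 31.2% of all tested genes. The median was 0.08 log2, and Fas, Perp and Pmaip1 lay below 1 FPKM throughout. Trp53, Mdm2 and Sesn2 rose by 1.44, 1.07 and 0.96 log2, and Trp53inp1, Plk2 and Btg2 fell by 1.45, 1.35 and 0.92 log2, so Rrm2b, at -0.25 log2, sat within a list that moved both ways. Left-out libraries changed these counts widely. The 8 pathway and state lists together held 28 genes higher (23.1%) and 29 lower (24.0%) of 121 tested, and the share higher is near the 22.1% of all tested genes. Without 5-FU replicates 1 and 2 in turn they held 7 and 7 higher and 5 and 7 lower, and without PBS replicates 1 and 2 in turn 59 and 43 higher and 38 and 52 lower. Cda, Nme2, Itpa, Rpa2, Rfc2, Blm, Ccnb2 and Trp53 kept their call in all 13 alternative settings.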

How the data were processed

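Total RNA of MC38 cells was selected for polyadenylated RNA, per the labels' protocols. The authors deposited 1 table of FPKM values for 36445 genes in 4 libraries. STAR 2.4.1a, Picard 2.9.0 and build GRCm38 are named, without roles, in the submitters' processing notes. The sources used here do not give the counting program, its annotation or whether it used strand. Gene IDs were matched to GENCODE M21 (GRCm38), which held 36295 and lacked 150, and 26 symbols shown as dates were restored from IDs.

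Depth came from the FPKM steps: FPKM times exon length, divided by the worth of 1 read, comes out as a whole number. With M21 merged exons, 63.1% to 65.1% of values below 100 reads lay within 0.02 of a whole read. Tyms, Shmt1, Dut and Dtymk were whole in all 4 libraries at that length, and for the other 5 genes the shortest length between 300 and 20000 bases that gave whole reads was taken. A gene with 2 kb of exons needs 0.072 and 0.0727 FPKM in 5-FU replicates 1 and 2, and 0.0363 and 0.036 FPKM in PBS replicates 1 and 2, for 3 reads, counting error only.

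Genes reaching 1 FPKM in 2 or more libraries were tested with limma 3.58.1 in R 4.3.3 (lmFit, eBayes with trend) on log2(FPKM + 1), two-sided, adjusted over all tested genes by Benjamini-Hochberg. Folds are ratios of mean FPKM. A difference between changes was tested by adding the log2 difference of both genes as a row. The fit was tested on simulated data with each gene's spread taken from these libraries. It called 33 of 100 genes with a true change of 1 log2 and 64 of 100 with 2 log2. Of 11444 unchanged genes it called 1. Only these 2 sets of 100 genes were changed, whereas 53.3% of tested genes passed in the data. The adjusted threshold was therefore stricter in the simulation. Both groups were also given the same spread, unlike the 5-FU and PBS pairs. These rates thus do not carry over to the data, where a gene that did not pass may still have changed. Matching transcript stretches (100 bases or more at 95% identity or more) came from blastn 2.17.0. Promoter sequences are from RefSeq.

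The genes and lists were chosen with earlier results of these data known. All 9 genes are named, and of each list up to 3 genes past the threshold per direction by size (or, where no gene passed, the 2 of smallest p); Shmt2, Tk1 and the genes below 1 FPKM or listed at 0 are named outside that rule, after their values were seen. Some genes that this rule names are not reported here. For Tyms, Rrm2 and Rrm2b the 3 genes nearest in pattern are named. Alternatives were pseudocounts of 0.1 and 0.5, no filter, quantile normalization, median-ratio scaling, a filter at a mean of 5 FPKM, rescaling without mitochondrial and ribosomal protein genes, eBayes without trend, the replicate number as a block, and each library left out.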

Additional observations from a re-analysis of the deposited data

How the results depend on the processing

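The higher call of Tyms held in 10 of 13 alternative settings and that of Dut in 9 of 13. Of the 9 genes 0 were higher with no filter on low values and 1 with quantile normalization, against 2 as reported. With 1 library left out, 0 to 5 were higher and 0 to 5 lower. Deviations of replicate 1 correlated at -0.0101 between the groups over 11644 genes, so no pattern shared by replicate number was seen. This cannot tell whether same-numbered libraries were handled together, because the 5-FU libraries differed little from each other. With the replicate number as a block, 2 of the 9 genes were higher and 1 was lower (Dctd, limma adjusted p = 0.0393), and over all genes 2484 were higher and 3553 lower.

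Over all genes, leaving out 1 library gave 481 to 4428 higher and 1311 to 4624 lower, and a mean of at least 5 FPKM, which tests fewer genes, gave 2158 lower. In the pathway and state lists it gave 7 to 59 higher and 5 to 52 lower, and no filter on low values gave 17 lower. The sign turned for Rrm1 (0.039 with median-ratio scaling), for Rrm2 (0.10 with median-ratio scaling, 0.0048 when rescaled without mitochondrial and ribosomal protein genes) and for Rrm2b (0.12 with quantile normalization). With 1 library left out, log2 differences ran from -0.22 to 0.43 for Dtymk, from -0.21 to 0.036 for Rrm1 and from -0.36 to 0.31 for Rrm2. Rrm2b minus Rrm2 was 0.50 with quantile normalization and -0.53 to 0.091 with 1 library left out, passing at -0.53 without PBS replicate 1. Tyms minus Dut passed at 0.85 with quantile normalization, at 0.61 without PBS replicate 1 and at 0.23 without PBS replicate 2, which were the highest and lowest values with 1 library left out. The cause of these changes was not tested. Rrm2b had no value at a mean of at least 5 FPKM.

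With 2 libraries a group the spread rests on few values, and with 1 library left out the remaining library is taken to vary as those of the other group do. The 5-FU libraries hold fewer reads than the PBS libraries, which limits low genes.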

Other observations

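The genes nearest to Tyms in pattern over the 4 libraries, by Euclidean distance of log2(FPKM + 1) centred on each gene's mean and among named genes of at least 5 FPKM on average, were Slc25a26, a mitochondrial carrier gene, at a distance of 0.015, and Aven and Pusl1, a pseudouridine synthase-like gene, at 0.057 and 0.0596. Slc25a26 measured 10.5 and 10.1 FPKM with 5-FU, against 6.11 and 3.34 FPKM with PBS. Nearest to Rrm2 were Trip13, a gene of the spindle checkpoint and meiotic chromosomes, at 0.0189, Ndst2 at 0.0289 and Pphln1 at 0.0383. Trip13 measured 33.5 and 34.3 FPKM with 5-FU, against 44.5 and 27.4 FPKM with PBS. Nearest to Rrm2b were the centromere gene Cenpc1 at 0.056, the gamma-tubulin complex gene Tubgcp5 at 0.0582 and Usp46 at 0.0582. Such distances over 4 libraries with shared depth are a description of likeness and carry no test.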
